A study of Mus musculus with 6 samples.

Results

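The genes described here encode the enzymes of lower glycolysis, from aldolase to pyruvate kinase, in the ventricles of mouse embryos. They are the 10 genes Aldoa, Aldoc, Tpi1, Gapdh, Pgk1, Pgam1, Pgam2, Eno1, Eno3 and Pkm, chosen by symbol to cover the 7 reaction steps. All 10 have a row among the 13843 rows of the table. RNA from single ventricles of stage E12.5 (mid-gestation), freed of atria and valves, was sequenced in 6 libraries on a C57BL/6 background, to ask what loss of Vhl does to the developing heart. Libraries labelled knockout (n = 3) were Vhl(flox/flox) with Nkx2.5(Cre/+), so that Cre made from 1 allele of the cardiac gene Nkx2-5 cuts the floxed Vhl in heart progenitors. Control libraries (n = 3) were Vhl(flox/flox) with Nkx2.5(+/+), so both groups carry the floxed alleles. A group with Cre and intact Vhl was not analysed here, and Vhl loss and the Cre allele cannot be told apart. Knockout 1 and control 1 were littermates, as were knockout 2 and control 2, by their labelled litter numbers. The labels give the remaining libraries litter numbers 3 and 4, while the design text speaks of 3 litters.

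Aldolase splits fructose bisphosphate into a pair of triose phosphates, and triose phosphate isomerase interconverts them. Glyceraldehyde phosphate dehydrogenase then makes NADH, phosphoglycerate kinase makes ATP, phosphoglycerate mutase and enolase rearrange the product, and pyruvate kinase makes ATP and pyruvate. Several steps have a form found in most cells and another that muscle takes up as it matures, such as Pgam1 and Pgam2, or Eno1 and Eno3. VHL marks hypoxia-inducible factors (HIF) for destruction, and many genes of glycolysis are known HIF targets.

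Values are the deposited normalized values, which are reads scaled per library. The label of knockout 3 was at odds with its Vhl level. Vhl had values of 11.1 and 10.3 in knockouts 1 and 2, against 34.5 in the library labelled knockout 3 and 33.7 to 38.6 in controls. Hif1a, a HIF subunit gene, had values of 185 and 163 in knockouts 1 and 2, against 473 in the library labelled knockout 3 and 405 to 457 in controls. Comparisons are therefore made between knockouts 1 and 2 and the 3 controls, and values of the library labelled knockout 3 are given apart. Leaving that library out because of its Vhl value makes differences of genes that follow Vhl partly circular, and the members' fold changes, isoform ratios and sum are also given with all 6 libraries. The libraries held 9067805 to 12592902 reads. A member had between 67 and 43427 reads in a library, and members other than Aldoc had at least 1497. Cardiomyocyte markers summed to 32531 and 29509 in knockouts 1 and 2, against 28621 to 35689 in controls, with 0 of 8 called. Epicardial markers summed to 663 and 576 in knockouts 1 and 2, against 315 in the library labelled knockout 3 and 272 to 336 in controls, with 2 of 5 higher, Wt1 and Krt19. Much of that difference was Krt19, at 268 and 210.1 in knockouts 1 and 2, against 35.2 to 49.2 in controls. The other 4 markers summed to 395 and 366 in knockouts 1 and 2, against 268 in the library labelled knockout 3 and 223 to 301 in controls. Erythroid markers summed to 6950.0 and 15284 in knockouts 1 and 2, against 6317 to 14244 in controls. Neural markers (3 of 6 measured) summed to 12.2 and 13.4 in knockouts 1 and 2, against 13.1 to 19.05 in controls. Endothelial markers summed to 1248 and 1267 in knockouts 1 and 2, against 1005 in the library labelled knockout 3 and 1079 to 1111 in controls. Of these 6 markers 5 were above all controls in both knockouts, and 1, Emcn, was called higher. Over all rows 18.1% were above all controls in both knockouts, 3.01% were called higher and 1.24% lower. Wt1, Krt19 and Emcn were not called with all 6 libraries (limma adjusted p = 0.77, 0.77 and 0.82). Of the skeletal muscle markers, Actn3 was at 3.88 and 4.03 in knockouts 1 and 2, against 2.94 to 5.45 in controls. The part of epicardial, endothelial and other cells in the results was not tested. In these bulk libraries, a change in the number of cells of a type and a change of RNA per cell cannot be told apart.

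Because most members moved together, their promoters are shown, from RefSeq on GRCm38.p6, as windows of 250 bases before to 50 after a gene start. All 10 members matched, with 16 windows. Windows were searched on both strands for ACGTG and GCGTG, the letters at the core of the HIF response element, and capitals mark a match, which reads CACGT or CACGC when it lies on the other strand. The windows printed are Pgk1 (chrX:106186850-106187149, plus strand), a window of Aldoa (chr7:126799129-126799428, minus strand), a window of Aldoc (chr11:78322823-78323122, plus strand), Pgam1 (chr19:41911621-41911920, plus strand), Tpi1 (chr6:124814109-124814408, minus strand), Pgam2 (chr11:5803747-5804046, minus strand), a window of Eno1 (chr4:150236947-150237246, plus strand) and Eno3 (chr11:70656926-70657225, plus strand). They set genes that rose, and Eno1, beside the muscle forms Pgam2 and Eno3.
Pgk1: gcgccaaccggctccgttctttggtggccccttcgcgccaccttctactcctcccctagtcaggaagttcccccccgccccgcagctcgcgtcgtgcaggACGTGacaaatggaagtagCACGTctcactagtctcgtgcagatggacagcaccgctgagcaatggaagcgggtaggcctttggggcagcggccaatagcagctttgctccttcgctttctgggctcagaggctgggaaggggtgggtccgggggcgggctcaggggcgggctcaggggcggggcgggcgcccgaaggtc
Aldoa: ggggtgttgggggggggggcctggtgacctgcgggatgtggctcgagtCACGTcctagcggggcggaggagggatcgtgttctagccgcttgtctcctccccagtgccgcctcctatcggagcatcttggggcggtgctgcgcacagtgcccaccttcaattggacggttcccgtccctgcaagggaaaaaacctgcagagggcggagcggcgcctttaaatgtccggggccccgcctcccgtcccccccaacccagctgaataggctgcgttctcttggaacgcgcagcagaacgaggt
Aldoc: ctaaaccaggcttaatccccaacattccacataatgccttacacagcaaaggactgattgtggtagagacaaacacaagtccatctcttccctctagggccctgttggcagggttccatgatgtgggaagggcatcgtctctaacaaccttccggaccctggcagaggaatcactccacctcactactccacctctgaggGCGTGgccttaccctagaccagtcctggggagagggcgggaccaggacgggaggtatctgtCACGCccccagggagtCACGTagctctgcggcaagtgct
Pgam1: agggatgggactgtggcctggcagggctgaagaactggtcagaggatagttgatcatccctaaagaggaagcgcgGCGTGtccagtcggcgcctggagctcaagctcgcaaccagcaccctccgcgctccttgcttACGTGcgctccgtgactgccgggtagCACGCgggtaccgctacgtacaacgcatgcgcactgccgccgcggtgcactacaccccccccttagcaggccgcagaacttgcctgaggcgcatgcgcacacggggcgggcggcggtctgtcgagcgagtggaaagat
Tpi1: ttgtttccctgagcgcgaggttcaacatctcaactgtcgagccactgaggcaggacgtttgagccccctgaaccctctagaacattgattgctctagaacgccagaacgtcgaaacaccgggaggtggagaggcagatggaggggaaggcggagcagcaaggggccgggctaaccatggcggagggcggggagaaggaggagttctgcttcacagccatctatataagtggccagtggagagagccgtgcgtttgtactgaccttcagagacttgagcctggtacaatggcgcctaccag
Pgam2: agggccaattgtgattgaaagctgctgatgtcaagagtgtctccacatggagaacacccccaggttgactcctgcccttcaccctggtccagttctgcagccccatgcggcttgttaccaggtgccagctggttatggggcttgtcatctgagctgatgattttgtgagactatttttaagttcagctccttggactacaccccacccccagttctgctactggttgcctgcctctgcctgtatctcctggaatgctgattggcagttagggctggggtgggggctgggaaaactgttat
Eno1: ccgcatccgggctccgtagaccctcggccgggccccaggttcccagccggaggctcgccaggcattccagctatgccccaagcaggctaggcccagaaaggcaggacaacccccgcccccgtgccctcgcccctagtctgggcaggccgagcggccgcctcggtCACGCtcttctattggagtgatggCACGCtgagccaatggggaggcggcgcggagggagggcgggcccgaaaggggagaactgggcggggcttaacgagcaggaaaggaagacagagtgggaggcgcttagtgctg
Eno3: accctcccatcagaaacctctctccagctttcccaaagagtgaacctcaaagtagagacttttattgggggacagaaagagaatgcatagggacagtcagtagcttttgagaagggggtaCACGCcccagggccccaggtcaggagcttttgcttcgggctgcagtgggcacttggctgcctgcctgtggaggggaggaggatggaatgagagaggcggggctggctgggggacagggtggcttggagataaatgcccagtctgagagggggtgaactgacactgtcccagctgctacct

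Pgk1 held ACGTG at 2 places, starting 150 and 131 bases before the gene start. In at least 1 window ACGTG was found for 6 of the 10 members, Aldoa, Aldoc, Gapdh, Pgk1, Pgam1 and Pkm. Over all 27025 genes with a window the share was 21.8%, and over all 32851 windows it was 19.6%. The genes with a window include ones without a row here, and the 10 members had 16 windows, so some members had more than 1 window to match. The counts of members are to be read beside the shares of genes, not those of windows. For Aldoa the 2 windows with ACGTG overlap and hold the same site. GCGTG was found for 5 members, Aldoc, Gapdh, Pgam1, Eno1 and Eno3, against 35.2% of all genes with a window and 32.4% of all windows. Tpi1 and Pgam2 held neither. The palindrome CACGTG, which contains ACGTG on both strands, was in 0 of the 16 windows and in 7.15% of all windows. GC content of the members' windows ranged from 52.7% to 69.0%, and was not compared with that of all windows. These matches describe the letters of the windows and do not show binding.

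Between knockouts 1 and 2 and the 3 controls, 7 of the 10 genes rose, 0 fell and 3 did not pass (limma, adjusted p under 0.05 over all rows). The 7 were Aldoa, Aldoc, Tpi1, Gapdh, Pgk1, Pgam1 and Pkm, with 1.54-fold to 4.86-fold higher mean values. Over all rows 3.01% were called higher and 1.24% lower. The median log2 fold change was 0.86 over the 10 members and -0.0082 over all rows. With all 6 libraries as labelled, 0 of the 10 were called by limma, against 0.0% of all rows, and the 7 genes had log2 fold changes of 0.43 to 1.45 at an adjusted p of 0.77. Those of Pgam2, Eno1 and Eno3 were -0.22, 0.30 and -0.27. With litter as a block the same 7 were called, where 4.86% of all rows were called higher and 3.24% lower. Control 3 has no littermate among the 5 libraries and adds nothing to the fold changes of that fit. They, and each gene's own spread there, rest on the littermate pairs of litters 1 and 2. The groups of 5 libraries did not overlap for 7 members that were higher and 2 that were lower, where 18.1% and 17.0% of all rows did so.

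**Figure D1:**
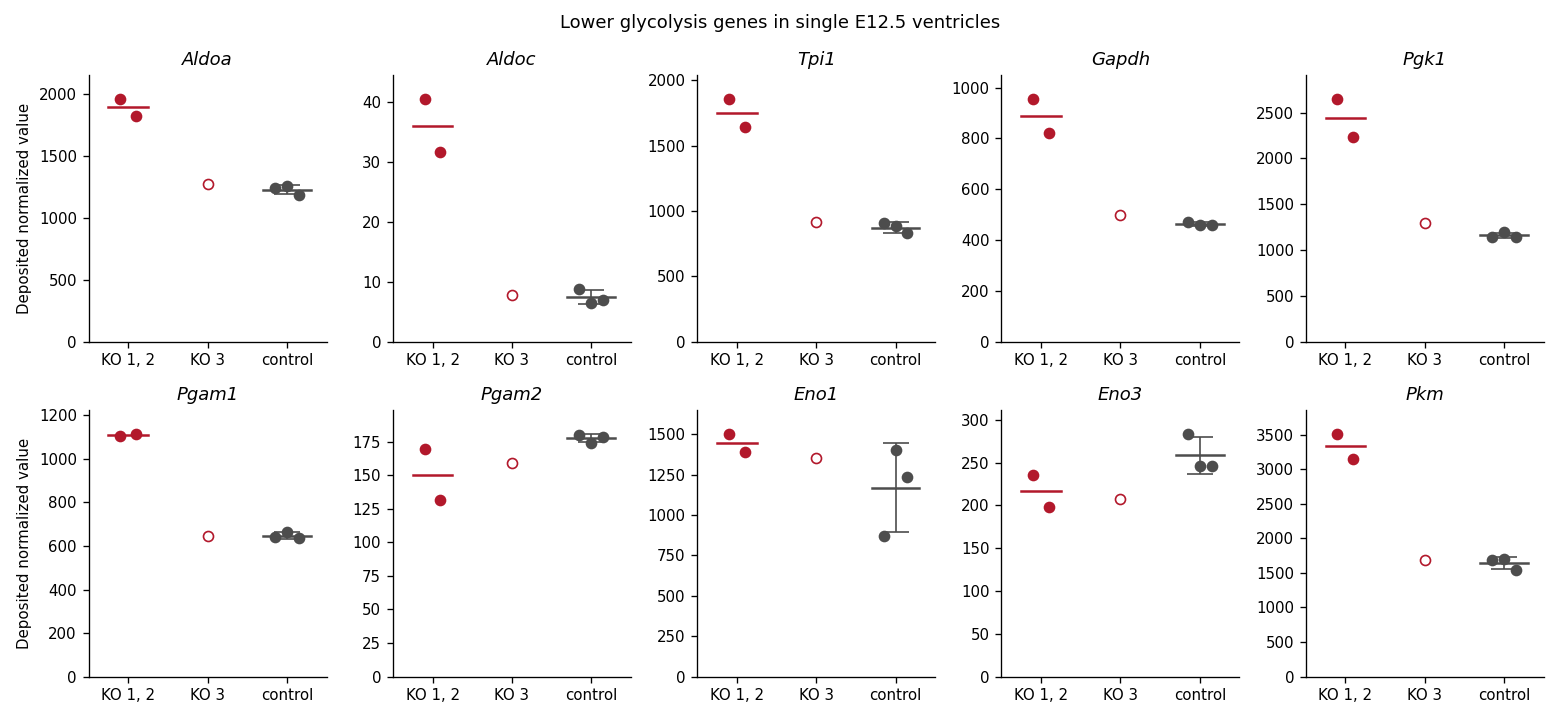
Deposited normalized values (reads scaled per library, linear axes from 0) of the 10 genes in knockouts 1 and 2 (filled red), the library labelled knockout 3 (open red) and the 3 controls (grey). Bars are means, and the error bar is the SD of the 3 controls. Knockouts 1 and 2 lie above all controls in 7 panels and below them for Pgam2 and Eno3.

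At the first step, Aldoa (chromosome 7, 126795234 to 126800751 on GRCm38), the aldolase of muscle and of most embryonic cells, stood at 1957 and 1823 in knockouts 1 and 2. Its values were 1275 in the library labelled knockout 3 and 1237, 1258 and 1186 in controls. Both knockouts were above all controls, and the library labelled knockout 3 was just above them. The rise was the smallest of the 7, with a log2 fold change of 0.62 ± 0.09 (SE, adjusted p = 0.0099). Its call was lost without control 2 (log2 0.64, adjusted p = 0.066), without control 3 (0.60, adjusted p = 0.053) and without knockout 1 (0.57, adjusted p = 0.067).

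Aldoc (chromosome 11, 78322968 to 78327781), the aldolase best known from brain, had values of 40.5 and 31.6 in knockouts 1 and 2. It stood at 7.78 in the library labelled knockout 3 and at 8.76, 6.46 and 7.03 in controls. This was the largest rise among the members, at a log2 fold change of 2.14 ± 0.17 (adjusted p = 0.00051). It was 30th of all rows in order of fold change. The rise started from few reads, 67 to 79 in each control against 501 and 361 in knockouts 1 and 2. Even so, aldolase RNA stayed mostly Aldoa: Aldoc made up 1.81% and 1.52% of the pair per kb of exon in knockouts 1 and 2, against 0.54% in the library labelled knockout 3 and 0.54% ± 0.09 in controls (SD, n = 3).

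Tpi1 (chromosome 6, 124810586 to 124814296), the isomerase of the trioses, had values of 1858 and 1640.0 in knockouts 1 and 2, against 917 in the library labelled knockout 3 and 907, 883 and 831 in controls. Both knockouts were at about double the control level, with a ratio of means of 2.00 and a log2 fold change of 1.00 ± 0.09 (adjusted p = 0.0013).

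Gapdh (chromosome 6, 125161715 to 125166467), often used as a reference gene, stood at 955 and 823 in knockouts 1 and 2. Values were 497 in the library labelled knockout 3 and 472, 460.0 and 459.8 in controls. The coefficient of variation of the controls was 1.47%, and the log2 fold change was 0.93 ± 0.09 (adjusted p = 0.0011). The level is uncertain, because the table has copies of this gene that can share its reads. The processed pseudogene Gm5559 on chromosome 5, 99.9% identical over 1002 bases, had values of 297 and 258 in knockouts 1 and 2, against 187 in the library labelled knockout 3 and 196, 209 and 179 in controls. The copies Gm5559 and Gm3839 held 24.0% and 24.1% of the summed value in knockouts 1 and 2, against 28.3% to 31.5% in controls. Summed with them, Gapdh rose by a log2 fold change of 0.82 ± 0.09 (adjusted p = 0.0026), a sum chosen after the values were seen.

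Pgk1 (chromosome X, 106187100 to 106203699), the kinase of the first ATP-making step, reached 2648 and 2235 in knockouts 1 and 2. It stood at 1297 in the library labelled knockout 3 and at 1147, 1194 and 1146 in controls. Of the members it had the second largest rise, with a log2 fold change of 1.06 ± 0.10 (adjusted p = 0.0015). The library labelled knockout 3 was above all controls, at 1.12 times their mean. With all 6 libraries, Pgk1 had a log2 fold change of 0.76 ± 0.24 (limma adjusted p = 0.77, unadjusted 0.013). DESeq2 on recovered reads of all 6 called Pgk1 alone among the 10 (adjusted p = 0.032).

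Pkm (chromosome 9, 59656368 to 59679375) encodes the pyruvate kinase of muscle and of most embryonic cells, whose M1 and M2 splice forms share this row and could not be separated. It had values of 3510 and 3153 in knockouts 1 and 2, against 1683 in the library labelled knockout 3 and 1690.1, 1693 and 1546 in controls. Knockouts 1 and 2 were again at about double the controls, with a log2 fold change of 1.02 ± 0.11 (adjusted p = 0.0023).

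Phosphoglycerate mutase and enolase each had both forms measured, with at least 1497 reads in every library. Pgam1 (chromosome 19, 41911923 to 41918660), the form of most cells, stood at 1105 and 1115 in knockouts 1 and 2, against 648 in the library labelled knockout 3 and 640.1, 666 and 637 in controls. It rose by a log2 fold change of 0.78 ± 0.08 (adjusted p = 0.0014; 0.75 when summed with its copy Pgam1-ps2), and was the one member with a higher value in knockout 2 than in knockout 1. Pgam2 (chromosome 11, 5801640 to 5803733), the muscle form, had values of 169 and 131 in knockouts 1 and 2, against 159 in the library labelled knockout 3 and 180.2, 174 and 179 in controls. All 3 libraries labelled knockout were below all controls, yet Pgam2 did not pass (log2 fold change -0.25 ± 0.11, adjusted p = 0.27). Knockout 2 was the lower of the pair, and the log2 fold change was -0.07 without it and -0.43 without knockout 1 (adjusted p = 0.061). The muscle form was 26.5% and 21.7% of the pair per kb of exon in knockouts 1 and 2, against 36.7% in the library labelled knockout 3 and 39.3% ± 0.99 in controls. The log2 ratio of Pgam2 to Pgam1 averaged -2.90 in knockouts 1 and 2 and -1.87 ± 0.06 in controls, a difference of -1.03. A two-sided exact permutation test of 2 against 3 libraries gave p = 0.2 (0.2 adjusted over the 3 isoform ratios tested), the smallest it allows. With all 6 libraries the difference was -0.74 (exact p = 0.1, adjusted 0.15).

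Enolase gave a less even picture. Eno1 (chromosome 4, 150236721 to 150248879), the form of most cells, had values of 1503 and 1390.45 in knockouts 1 and 2, against 1355 in the library labelled knockout 3 and 870.02, 1404 and 1238 in controls. The groups overlapped, because control 2 was above knockout 2. Eno1 did not pass, unlike Pgam1 (log2 fold change 0.33 ± 0.19, adjusted p = 0.42). Its controls varied by 23.4% (coefficient of variation), against 1.47% to 16.2% for the other members. The spread came with control 1, where the near-identical pseudogene Gm4735 on chromosome 2 (99.6% over 1302 bases) had a value of 151, against 0.18 to 3.69 in the other 5 libraries. Summed with Gm4735, Eno1 was at 1506 and 1392 in knockouts 1 and 2, against 1021, 1408 and 1238 in controls, and still did not pass (log2 fold change 0.26 ± 0.14, adjusted p = 0.4). Without control 1 the log2 fold change of Eno1 alone was 0.13 (adjusted p = 0.63). The retrogene Eno1b was not analysed here.

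Eno3 (chromosome 11, 70657202 to 70662513), the muscle enolase, stood at 236 and 199 in knockouts 1 and 2, against 208 in the library labelled knockout 3 and 284, 246 and 246 in controls. All 3 libraries labelled knockout were below all controls, and Eno3 did not pass (log2 fold change -0.25 ± 0.10, adjusted p = 0.25; litter as a block, -0.29, adjusted p = 0.053). Eno3 made up 32.7% and 30.6% of the pair with Eno1 per kb of exon in knockouts 1 and 2, against 32.2% in the library labelled knockout 3 and 41.2% ± 7.98 in controls. The log2 ratio of Eno3 to Eno1 differed by -0.59 between knockouts 1 and 2 and controls (exact permutation p = 0.2). That of Aldoc to Aldoa differed by 1.66 (exact permutation p = 0.2), and both are at the smallest p the design allows. The Eno3 ratio rests in part on the low Eno1 value of control 1, and was -0.32 without that library. With all 6 libraries the differences were -0.57 for Eno3 (exact permutation p = 0.1, adjusted 0.15) and 1.11 for Aldoc (exact permutation p = 0.2, adjusted 0.2).

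**Figure D2:**
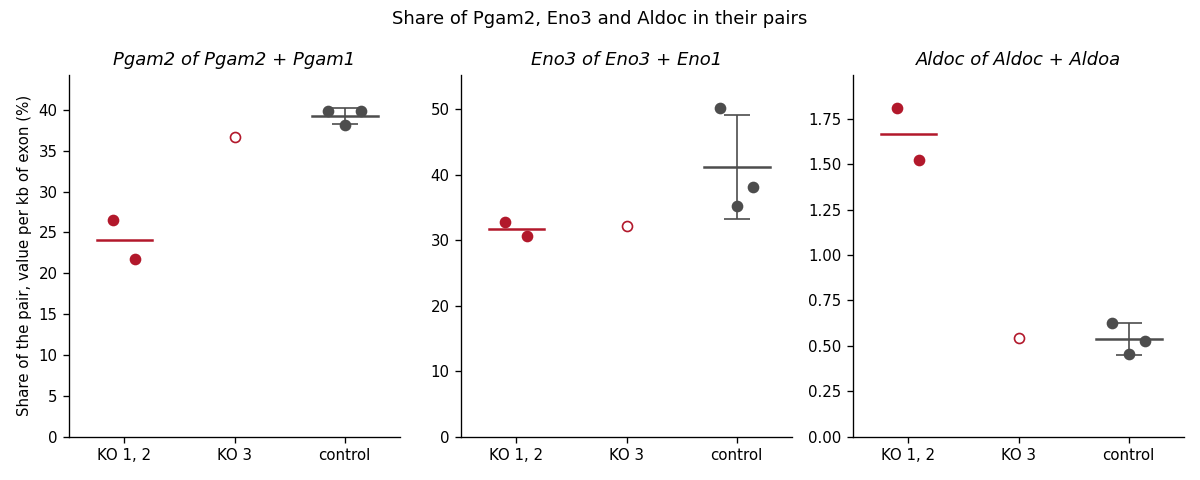
Share (%) of Pgam2, Eno3 and Aldoc in the sum with Pgam1, Eno1 and Aldoa, from values per kb of merged exon, in knockouts 1 and 2, the library labelled knockout 3 and the controls. Bars are means with the SD of the controls. The share of Pgam2 was 26.5% and 21.7% in knockouts 1 and 2 and 38.1% to 39.9% in controls.

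**Figure D3:**
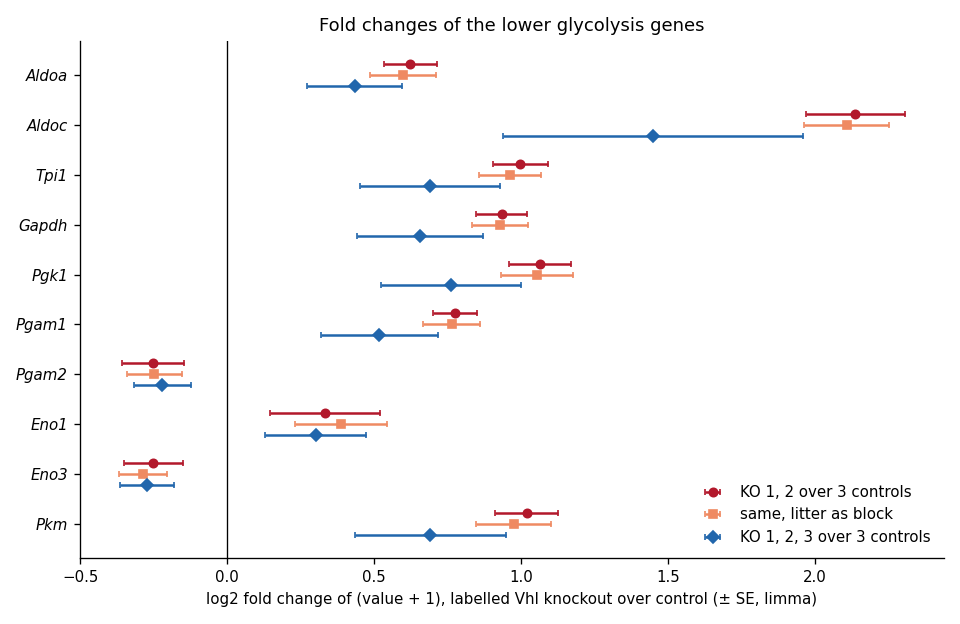
Log2 fold changes (± SE) of the 10 genes, labelled knockout over control, in knockouts 1 and 2 against 3 controls, with litter as a block, and in all 6 libraries. Fold changes with the block come from litters 1 and 2 alone, as control 3 has no littermate in that fit. The estimates of the first 2 fits lie close together, while those with the library labelled knockout 3 are nearer to 0 with wider errors for the 7 genes that rose.

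The littermate pairs gave like sizes for most genes. In litter 1 the knockout to control ratio was 1.58 for Aldoa, 4.62 for Aldoc, 2.05 for Tpi1, 2.02 for Gapdh, 2.31 for Pgk1, 1.73 for Pgam1 and 2.08 for Pkm. In litter 2 the ratios of the same genes were 1.45, 4.90, 1.86, 1.79, 1.87, 1.67 and 1.86. Pgam2 and Eno3 had ratios under 1 in both litters, 0.94 and 0.83 in litter 1 and 0.75 and 0.81 in litter 2. Eno1 was at 1.73 in litter 1 and 0.99 in litter 2. Knockout 1 was higher than knockout 2 for 9 of the 10 genes, which was not compared with the share over all rows. The library labelled knockout 3 was inside the control range for 4 members, above it for Aldoa, Tpi1, Gapdh and Pgk1, and below it for Pgam2 and Eno3, with ratios to the control mean of 0.80 to 1.16. For the 3 libraries labelled knockout and the 3 controls, 4 members were higher and 2 lower without overlap, where 5.13% and 4.65% of all rows were.

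The enzymes were abundant. Summed over the 10 genes, the value was 13981 and 12542 in knockouts 1 and 2, against 8046 in the library labelled knockout 3 and 7436, 7986 and 7475 in controls. They took 1.37% and 1.26% of all scaled reads in knockouts 1 and 2 and 0.74% to 0.80% in controls. The ratio of the mean sums was 1.74, and the difference on the log2 scale was 0.80 (exact permutation p = 0.2, the smallest possible). That difference was 0.56 with all 6 libraries (exact permutation p = 0.1, again the smallest possible). By value per kb of merged exon in controls, Aldoc stood at percentile 26.1 of the rows with a length and the other members between percentiles 97.4 and 99.5.

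Compared per kb of merged exon, control levels ran from Pgk1 (518 ± 12.2) and Aldoa (421 ± 12.8) to Pkm (329 ± 16.8), Pgam1 (327 ± 8.22) and Tpi1 (317 ± 14.1). Lower came Eno1 (218 ± 50.8), Pgam2 (211 ± 3.68), Eno3 (149 ± 12.47), Gapdh (112 ± 1.65) and Aldoc (2.27 ± 0.37). Pkm and Pgam1, Pgam1 and Tpi1, and Eno1 and Pgam2 were neighbours whose controls overlapped. Merged exons include those of long minor transcripts, which lowers Gapdh and Eno1 most. Per kb of the longest coding transcript, the order was Aldoa (792), Pkm (676), Pgk1 (637), Eno1 (578), Tpi1 (544), Pgam1 (365), Gapdh (327), Pgam2 (211), Eno3 (165) and Aldoc (2.66). By either length the control mean of Pgam2 was below that of Pgam1 and that of Eno3 below that of Eno1, although in control 1 Eno3 made up 50.2% of its pair per kb of merged exon. In knockouts 1 and 2, Pgk1 reached 1180 and 996 and Pkm 702 and 630.4 per kb of merged exon, while Pgam2 was at 201 and 156 and Eno3 at 136 and 114.

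**Figure D4:**
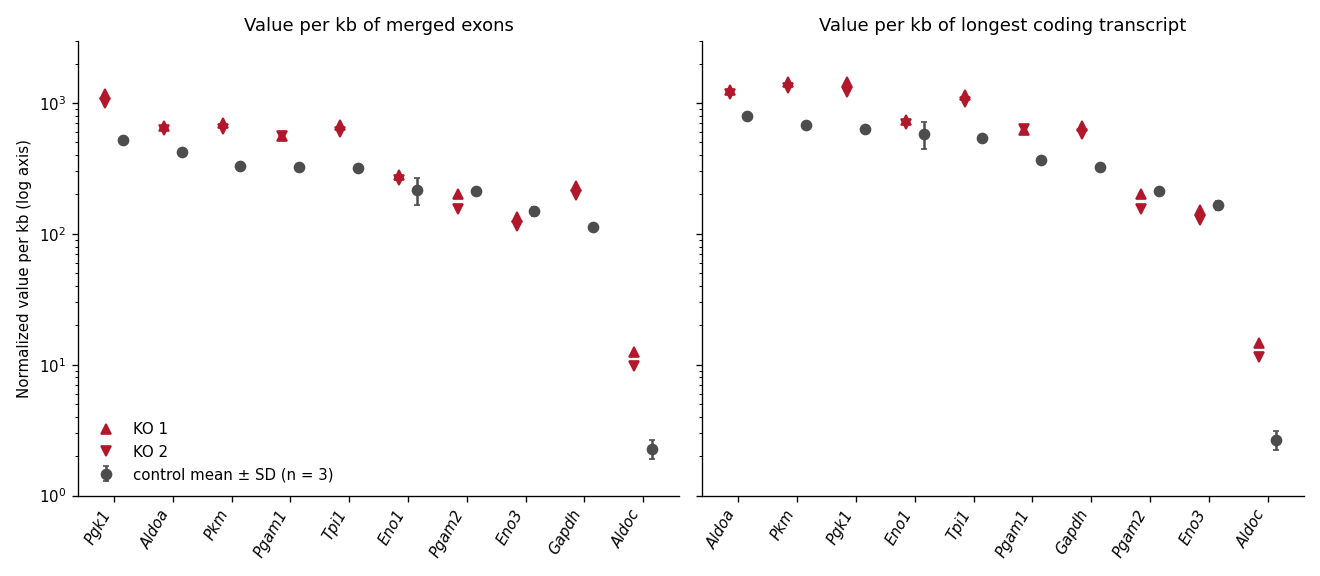
Normalized value per kb (log axis) of the 10 genes in knockouts 1 and 2 and as the mean ± SD of the 3 controls, per merged exon length (left) and per longest coding transcript (right). Genes are in order of their control mean, and Gapdh moves from the ninth to the seventh place between the panels.

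Genes before and after these steps, and muscle forms of other enzymes, were compared in the same fit. There 3.01% of all rows were called higher and 1.24% lower. Of 10 measured genes of glucose entry to phosphofructokinase, 6 rose and 0 fell, with a median log2 fold change of 0.80. The glucose transporter Slc2a3 (439 and 265 in knockouts 1 and 2, 43.3 ± 8.58 in controls) and the hexokinase Hk2 (238 and 235, against 93.4 ± 15.0) rose most. Slc2a1, Gpi1, Pfkl and Pfkp also rose, by log2 fold changes of 1.04, 0.55, 1.13 and 1.11. The muscle phosphofructokinase Pfkm was at 141 and 129.5 in knockouts 1 and 2, against 151 ± 6.53 in controls (adjusted p = 0.3). Of 8 genes at the end of the pathway 3 rose, Ldha (log2 fold change 1.19), the lactate exporter Slc16a3 (1.68) and the kinase Pdk1 (1.13), and the pyruvate carrier Mpc2 fell (34.2 and 29.2, against 42.9 ± 0.16). Mpc2 was at 46.4 in the library labelled knockout 3, and its call was lost when any of the 5 libraries was left out. Muscle forms of other energy enzymes were measured for 13 genes, of which 0 rose, 4 fell and 9 did not pass (median log2 fold change -0.41), with Pfkm and Ldhb also counted in the lists before. The 4 were the creatine kinase Ckm (9.78 and 7.71 in knockouts 1 and 2, 23.9 ± 8.71 in controls), the phosphorylase Pygm (175 and 188, against 265 ± 6.15), the oxidase subunit Cox6a2 (60.9 and 60.2, against 93.3 ± 2.62) and the adenylate kinase Ak1 (112 and 108, against 147 ± 5.74). That list of 13 leaves out Hk2, Ldha and the members Aldoa and Pkm, which are also made in muscle and rose. Its count of 0 that rose therefore depends on the genes listed. The list also holds Mb and Fabp3, which are not enzymes. With any 1 control left out, 3 of the 13 fell, where 60 to 90 of all 13843 rows were called lower. Fewer of the 13 fell with either knockout left out, where fewer of all rows were called lower too. Of these lists, 0 genes were called with all 6 libraries.

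**Figure D5:**
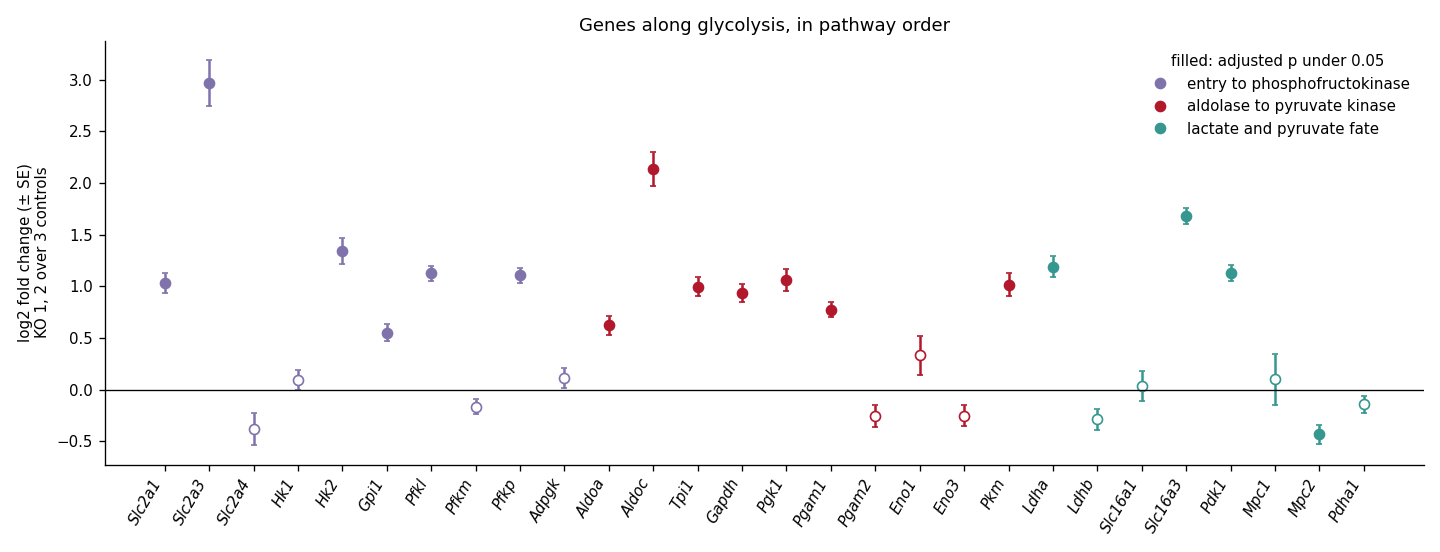
Log2 fold change (± SE) of knockouts 1 and 2 over the 3 controls for genes in pathway order, from glucose entry through the 10 lower enzymes to lactate and pyruvate. Filled points passed an adjusted p under 0.05. Slc2a4, Pfkm, Pgam2, Eno3 and Ldhb, forms abundant in muscle or heart, lie below 0 and did not pass. Hk2, Aldoa, Pkm and Ldha, which are also made in muscle, lie above 0 and passed. Pdha1, a pyruvate dehydrogenase subunit, also lies below 0 and did not pass, while Mpc2 lies below 0 and passed.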

How the data were processed

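RNA of 6 single ventricles (500 ng, single reads of 75 bp) was sequenced. Per the submitters' processing notes, CASAVA 1.8.2, cutadapt 1.3, RSEM 1.2.3 and GRCm38 were used. The sources used here do not name annotation, filter or scaling. Values in the deposited table are a normalized signal per gene. In each library 100% of values were whole multiples of 1 step (within 0.01 reads), and the steps equal scaling by edgeR's trimmed mean of M values. None of the 13843 rows was under a value of 1 in more than 3 libraries. RSEM shares reads between copies, and the libraries did not mark strand. Symbols came from GENCODE M21 (168 rows without one), as did coordinates and lengths.

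The test was limma 3.58.1 with trend (R 4.3.3) on log2(value + 1), over all rows, with Benjamini-Hochberg adjustment at 0.05. Fold changes are on that scale. Tests were checked on simulated data. edgeR 4.0.16 and DESeq2 1.42.0 were run on the recovered reads. Single embryos are the replicates. Litters pair knockouts and controls 1 and 2. Their deviations from group means correlated at 0.20 and 0.28 over all 6 libraries, and at 0.32 and 0.24 over the 5 compared. The members, lists and alternatives were chosen with earlier results of these data known. All members, Vhl, Hif1a and the list genes that passed are named (in the list of 13, the 4 with the smallest p), with others named after their values were seen. Copies are rows at least 98% identical to a member over at least 700 bases.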

Additional observations from a re-analysis of the deposited data

Results flagged for a closer look

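Eno1 was flagged because its littermate pairs went opposite ways. The log2 ratio of knockout to control was 0.79 in litter 1 and -0.014 in litter 2. The difference between the litters was not tested. Eno1 was at 870.02 in control 1, while Gm4735 was at 151 there, and the part of shared reads in the difference was not tested.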

How the results depend on the processing

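With knockouts 1 and 2 against the 3 controls, 7 members were higher and 0 lower with another pseudocount (0.1 or 5), a mean value of at least 5, scaling by library total or by median of ratios, edgeR, DESeq2, copies summed, and litter as a replicate block, which changed no member's call. All log2 fold changes kept their sign in these fits. Fold changes with the block come from litters 1 and 2 alone. The block took the genes that were lower in the list of muscle forms to 6, against 4 without it. It added the binding proteins Mb (limma adjusted p = 0.00021) and Fabp3 (0.019), which are not enzymes. It added 1 call in each of 3 other lists: 1 lower among genes of glucose entry (Slc2a4), 1 lower among relatives (Eno2), and 1 higher among splicing regulators (Myc). Over all rows 416 were higher and 172 lower, 673 and 449 with the block, 554 and 274 with DESeq2.

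With all 6 libraries, limma called 0 members and 0 of the 6, 3, 1 and 4 genes called in the lists above. Its log2 fold changes were 0.43 for Aldoa, 1.45 for Aldoc, 0.69 for Tpi1, 0.66 for Gapdh, 0.76 for Pgk1, 0.52 for Pgam1 and 0.69 for Pkm, all at adjusted p = 0.77, with unadjusted p between 0.013 and 0.031. edgeR called 0 (0.46, 1.85, 0.75, 0.71, 0.83, 0.56 and 0.76 for the same genes). DESeq2 called 1, Pgk1, and gave 0.46, 1.85, 0.75, 0.71, 0.56 and 0.76 for the others. Over all rows limma and edgeR called 0 (859 and 907 at an unadjusted p under 0.05), and DESeq2 11.

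Leaving out each of the 5 libraries gave 6 to 7 members higher and 0 lower, Aldoa being the call lost, at 0.57 to 0.67. Genes of glucose entry were higher for 5 to 6, genes of the pathway's end lower for 0 (Mpc2 was lost each time), and muscle forms lower for 2 to 3. Calls over all rows dropped as well. Without controls 1, 2 and 3, 297, 219 and 259 of all rows were called higher and 90, 60 and 83 lower, against 416 and 172 with the 5 libraries. With 1 knockout left, its spread is assumed to be that of the controls.

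Ranks per kb in controls changed with the longest coding transcript, to 1 for Aldoa, 2 for Pkm, 3 for Pgk1, 4 for Eno1, 6 for Pgam1, 7 for Gapdh, 8 for Pgam2 and 9 for Eno3. Aldoc, with 67 to 79 reads per control, is the member whose depth limits it most.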

Other observations

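Relatives of the members and regulators of Pkm splicing gave 0 calls. Of 5 measured relatives 0 rose and 0 fell, where 3.01% of all rows were called higher and 1.24% lower. The neuronal enolase Eno2 was at 5.17 and 4.73 in knockouts 1 and 2, against 7.88, 11.2 and 6.92 in controls, lower than each of them (adjusted p = 0.14). Both knockouts were below all controls for 17.0% of all rows. Bpgm, the bisphosphoglycerate mutase of red cells, was at 33.4 and 56.8 in knockouts 1 and 2, against 51.5, 63.7 and 37.2 in controls (adjusted p = 0.78). It was low in knockout 1 and control 3, the 2 libraries in which erythroid markers summed to 6950.0 and 6317, against 11266 to 15284 in the other 4.

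Of 8 regulators of Pkm splicing 0 passed, where 3.01% of all rows were called higher and 1.24% lower. Ptbp1, a factor that favours the M2 form, was at 250 and 270.2 in knockouts 1 and 2, against 213 ± 12.4 in controls (log2 fold change 0.28 ± 0.08, adjusted p = 0.099). Hnrnpa1 and Srsf3 had log2 fold changes of 0.03 ± 0.08 and 0.06 ± 0.08.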
